A study of Mus musculus with 59 samples.

Results

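The simple epithelial keratins *Krt7*, *Krt8*, *Krt18* and *Krt19* were followed through single mouse epiblasts, the pluripotent tissue of the postimplantation embryo, at E6.25. They were chosen by symbol and are 4 of the 22134 genes with a listed transcript, and each was represented by the transcript with the highest mean count over the 14 epiblasts. The RNA-seq part of the study asked how epiblast transcription changes without the histone methyltransferases G9a, encoded by *Ehmt2*, and EZH2, encoded by *Ezh2*. In the Ehmt2 cross 4 Ehmt2-/- knockouts were compared with 4 controls, and in the Ezh2 cross 3 Ezh2-/- knockouts with 3 controls. The labels give the controls as +/+, whereas the methods also count +/- embryos as controls. The embryos came from intercrosses of heterozygotes on a mixed background, so the deletion was present in the whole conceptus, and the Ehmt2 mice carried a *ΔPE-Pou5f1-EGFP* reporter. Each library was made from 1 isolated epiblast, with its RNA amplified before sequencing.

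Keratins form intermediate filaments only as pairs of a type I and a type II protein. *Krt7* and *Krt8* encode type II keratins, and *Krt18* and *Krt19* type I keratins. The pair of K8 and K18 is the first keratin filament system of the mouse embryo, and K7 and K19 join it in trophectoderm and in many simple epithelia, the single-layered sheets that line ducts and cavities. In the postimplantation conceptus these keratins are best known from trophoblast and visceral endoderm, the layers that enclose the epiblast.

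*Krt7*, *Krt8* and *Krt18* lie on chromosome 15 of GRCm38 and *Krt19* lies on chromosome 11. The *Krt8* transcript ENSMUST00000023952 (chromosome 15, 101996698 to 102004482, minus strand, 9 exons) and the *Krt18* transcript ENSMUST00000023803 (chromosome 15, 102028180 to 102032027, plus strand, 7 exons) point away from each other, with their starts 23.7 kb apart. *Krt7* was read as ENSMUST00000068904 (chromosome 15, 101412402 to 101430313, plus strand, 9 exons) and *Krt19* as ENSMUST00000007317 (chromosome 11, 100140810 to 100146120, minus strand, 6 exons). The RefSeq table of GRCm38.p6 matched 3 of the 4 genes, and *Krt19* had no entry in it. The promoters of the 3 matched genes are shown as a description, and their part in the keratin levels was not tested. Each runs from 250 bases before to 50 bases after the RefSeq start, 5′ to 3′ on the gene's strand, and capitals mark matches to the letters searched.
Krt8, chr15:102004293-102004592, minus strand: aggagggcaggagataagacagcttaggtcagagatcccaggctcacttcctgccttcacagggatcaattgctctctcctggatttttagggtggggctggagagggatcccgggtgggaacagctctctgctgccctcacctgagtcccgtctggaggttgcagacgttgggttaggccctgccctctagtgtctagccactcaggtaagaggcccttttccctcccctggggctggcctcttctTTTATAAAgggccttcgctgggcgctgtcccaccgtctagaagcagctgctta
Krt18, chr15:102027966-102028265, plus strand: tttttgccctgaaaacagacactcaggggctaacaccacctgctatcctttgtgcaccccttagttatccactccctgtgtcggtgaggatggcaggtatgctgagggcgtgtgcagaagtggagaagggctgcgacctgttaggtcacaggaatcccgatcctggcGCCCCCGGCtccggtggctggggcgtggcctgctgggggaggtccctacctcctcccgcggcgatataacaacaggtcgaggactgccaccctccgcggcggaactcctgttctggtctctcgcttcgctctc
Krt7, chr15:101412153-101412452, plus strand: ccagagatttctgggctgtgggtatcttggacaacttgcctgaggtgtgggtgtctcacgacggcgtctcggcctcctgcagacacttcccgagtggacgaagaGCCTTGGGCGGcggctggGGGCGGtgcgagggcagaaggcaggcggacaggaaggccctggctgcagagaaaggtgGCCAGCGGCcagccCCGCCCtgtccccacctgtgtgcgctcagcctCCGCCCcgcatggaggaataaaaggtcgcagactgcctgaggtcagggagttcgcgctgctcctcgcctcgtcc

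Simple motifs were searched by their letters on both strands. The TATA-box pattern was spelled TATAAA. The pattern bound by AP-1 factors was spelled TGANTCA. The pattern bound by TFAP2 factors was spelled GCCNNNGGC. The pattern known as the GC box was spelled GGGCGG. *Krt8* held the TATA-box pattern on each strand within 1 stretch of overlapping letters that begins at position -3 from the RefSeq start, and none of the other 3 patterns. *Krt18* held 1 TFAP2 pattern, at position -83. *Krt7* held 2 TFAP2 patterns and 4 GC boxes, and the TFAP2 pattern at position -146 overlaps a GC box. Of all 27025 RefSeq promoters of this length, 14.2% held the TATA-box pattern, 7.93% the AP-1 pattern, 16.5% the TFAP2 pattern and 35.9% a GC box. None of the 3 keratin promoters held the AP-1 pattern. The counted Ensembl transcripts of *Krt8* and *Krt18* start at 102004482 and 102028180, inside the printed windows and upstream of the RefSeq starts. The TATA-box stretch of *Krt8* therefore lies within the span of the counted transcript. A match is a description of these letters, not a bound site.

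Reads had been trimmed to 40 nt, so sequence shared with other genes bears on the counts. *Krt19* shared none of its 1537 words of 40 bases with the transcripts of another gene. *Krt8* shared 621 of 1919, or 32.4%, with the pseudogene *Krt8-ps* and with *Gm36026*, a long noncoding RNA that overlaps the start of *Krt8* on the other strand. *Krt18* shared 61 of 1398, or 4.36%, with the pseudogenes *Gm17847* and *Gm5200*. *Krt7* shared 44 of 4055, or 1.09%. Matches of at least 95% identity elsewhere in the genome covered 92.3% of the *Krt8* bases, at 1 locus. For *Krt7* they covered 8.92% of the bases, at 16531 loci, and for *Krt18* and *Krt19* 0%. By shared sequence *Krt8* is the least certain of the 4, whereas *Krt19* and *Krt7* rest on fewer reads.

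In the Ehmt2 cross the deposited counts summed to between 32431296 and 68464895 per epiblast over all transcripts, and in the Ezh2 cross to between 30161171 and 37500157. *Ehmt2* was lower in every Ehmt2 knockout than in any control, with a log2 fold change of -1.63 (SE 0.21, adjusted p = 0.00454 in edgeR's quasi-likelihood test), and *Ezh2* was lower in every Ezh2 knockout, with a log2 fold change of -2.52 (SE 0.27, adjusted p = 0.0160). The summed level of 10 epiblast markers was 1623 to 3058 CPM (read counts scaled to a common library size) over the 14 epiblasts, and all 10 had counts in both crosses. It was lower in every Ehmt2 knockout, at 1623 to 2375 CPM, than in any control, at 2707 to 3058 CPM. In the Ezh2 cross it overlapped, at 2237 to 2946 against 2739 to 2980 CPM. Gene by gene, 0 of the 10 were called in the Ehmt2 cross, and their median log2 fold change was -0.22. Of the 10, 2 had every knockout below every control, as did 2.53% of all transcripts. In the Ehmt2 cross replicates 1 to 3 and replicate 4 were taken as separate comparison sets, because a table of the study compares knockout 4 with control 4 alone. The methods text speaks of all controls, and the labels name no set. Replicate 4 of both groups stood apart from replicates 1 to 3 over all genes, and also in several keratin values below. Within the Ehmt2 groups, chi-square per degree of freedom over all genes was 146 to 192 in pairs with replicate 4. In pairs among replicates 1 to 3 it was 16.7 to 31.0. The counts of control 4 and knockout 4 summed to 62589918 and 68464895, against 32431296 to 45007990 in replicates 1 to 3. In the Ezh2 cross control 2 and knockout 1 held 1379 and 3008 summed CPM of 18 visceral endoderm markers, against 39.9 to 57.8 in the other 4 epiblasts. Counts of replicates differed by far more than sampling noise in every pair, so each epiblast was kept as its own sample.

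*Krt19* rose in the Ehmt2 knockouts, whereas no change of *Krt8*, *Krt18* or *Krt7* passed the test. The fitted rise of *Krt19* was 9.78-fold, and it rested on knockouts 1 to 3. The plot of CPM by epiblast shows all values.

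**Figure D1:**
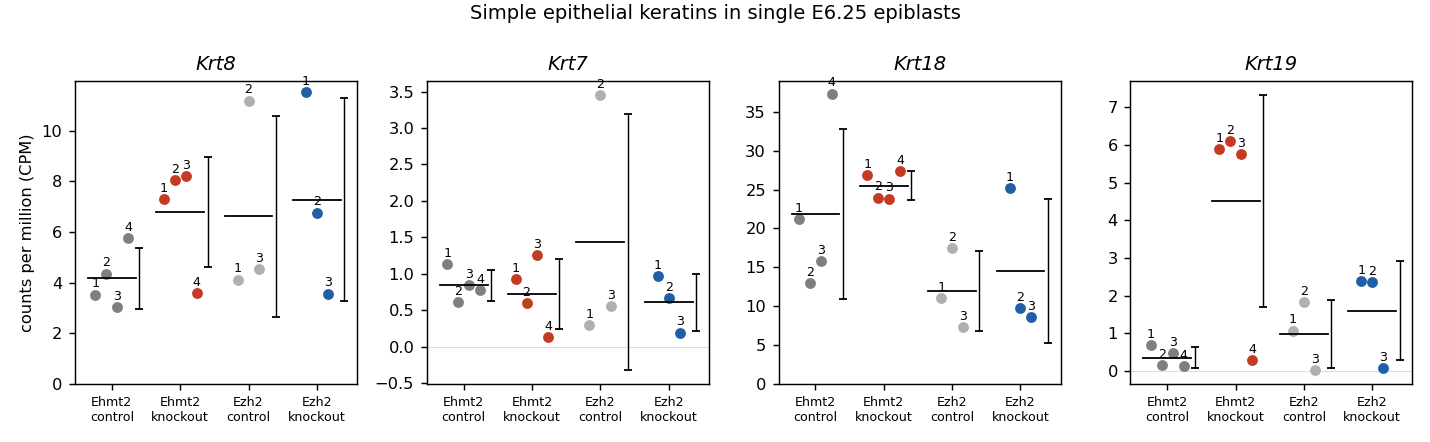
Level of each keratin (y axis, CPM scaled within its cross) in each epiblast, with points numbered by replicate, horizontal lines for group means and vertical bars for the SD. Ehmt2 knockouts 1 to 3 reached 5.77 to 6.10 CPM of *Krt19*, while knockout 4 stayed at 0.290 CPM, among the controls.

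*Krt19* was barely counted in the Ehmt2 controls, at 28, 7, 18 and 7 reads in controls 1 to 4, or 0.685, 0.148, 0.472 and 0.126 CPM. Knockouts 1, 2 and 3 held 211, 214 and 226 reads, or 5.90, 6.10 and 5.77 CPM, and knockout 4 held 18 reads, or 0.290 CPM. Knockouts 1 to 3 lay above every control and within a narrow range of each other, and knockout 4 lay between the controls, so the groups overlapped. The mean was 0.358 ± 0.270 CPM (SD, n = 4) in the controls and 4.52 ± 2.82 CPM (SD, n = 4) in the knockouts. In the fit with a term for the comparison set, the log2 fold change was 3.29 (SE 0.56, adjusted p = 0.0228 in edgeR's quasi-likelihood test over 49872 transcripts). Of all transcripts tested, 0.441% were called higher, that is with an adjusted p under 0.05 and a log2 fold change over 1.4, and 0.0581% lower, which makes 0.499% in either direction. *Krt19* stood at rank 206 of 49872 by fold change and at rank 129 among the 220 transcripts called higher. Those 220 transcripts belong to 118 genes.

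The call of *Krt19* was not stable over the alternatives. Without replicate 4 of both groups the log2 fold change was 3.77 (adjusted p = 0.00432 in edgeR), whereas without the term for the comparison set it was 3.67 (adjusted p = 0.222) and with the replicate number as a block 3.38 (adjusted p = 0.0904). It passed the threshold in 2 of the 8 fits that left out 1 epiblast, those without control 4 or knockout 4, and the adjusted p in the other 6 was 0.0567 to 0.118. The two-sided exact permutation test on CPM gave p = 0.0857, where 4 against 4 allows 0.0286 at the least. Within replicate 4 the pair of values was 0.290 CPM in the knockout against 0.126 CPM in the control. A second *Krt19* transcript, ENSMUST00000126460, lies within the span of the first (chromosome 11, 100140907 to 100143699) and held a mean of 53.1 reads beside 70.8, and reads that fit both cannot be told apart.

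The summed extraembryonic ectoderm markers, like *Krt19*, were higher in Ehmt2 knockouts 1 to 3 than in the controls and knockout 4. All 12 genes of that list had counts, and their summed level was 35.8 to 143 CPM in the controls, 770, 164 and 207 CPM in knockouts 1 to 3 and 45.2 CPM in knockout 4. Of the 10 tested, 5 were called higher, namely *Elf5*, *Esrrb*, *Tfap2c*, *Bmp4* and *Sfmbt2*, and none lower, while 0.441% of all transcripts were called higher. Every knockout lay above every control for 3 of the 10, beside 2.56% of all transcripts. With the replicate block 2 of the 10 were called, and without the comparison set term 0. The defining trophoblast factor *Elf5* ranged from 0 to 0.525 CPM in the controls and from 0 to 59.6 CPM in the knockouts. Control 2 and knockout 2 were close in the summed level, at 143 and 164 CPM, and held 0.148 and 6.10 CPM of *Krt19*. Knockouts 1 and 2 differed in the summed level, at 770 and 164 CPM, and held 5.90 and 6.10 CPM of *Krt19*. Control 1 had the lowest summed level, at 35.8 CPM, and the highest *Krt19* of the controls, at 0.685 CPM. The summed level of 7 listed ectoplacental cone and giant cell markers was 0.920 to 10.0 CPM in the controls, 12.9 to 20.4 CPM in knockouts 1 to 3 and 0.113 CPM in knockout 4. It was 2.67 CPM in control 2 and 16.9 CPM in knockout 2. Over all 14 epiblasts, with set means subtracted, *Krt19* had a Pearson correlation of 0.65 with the summed extraembryonic ectoderm markers. With the summed ectoplacental cone and giant cell markers the correlation was 0.71. The summed epiblast markers were lowest in knockout 1, at 1623 CPM, which was highest in extraembryonic ectoderm markers. The part of these markers in the rise of *Krt19* was not tested, and in such bulk samples a change in the share of cells cannot be told apart from a change in RNA per cell.

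**Figure D2:**
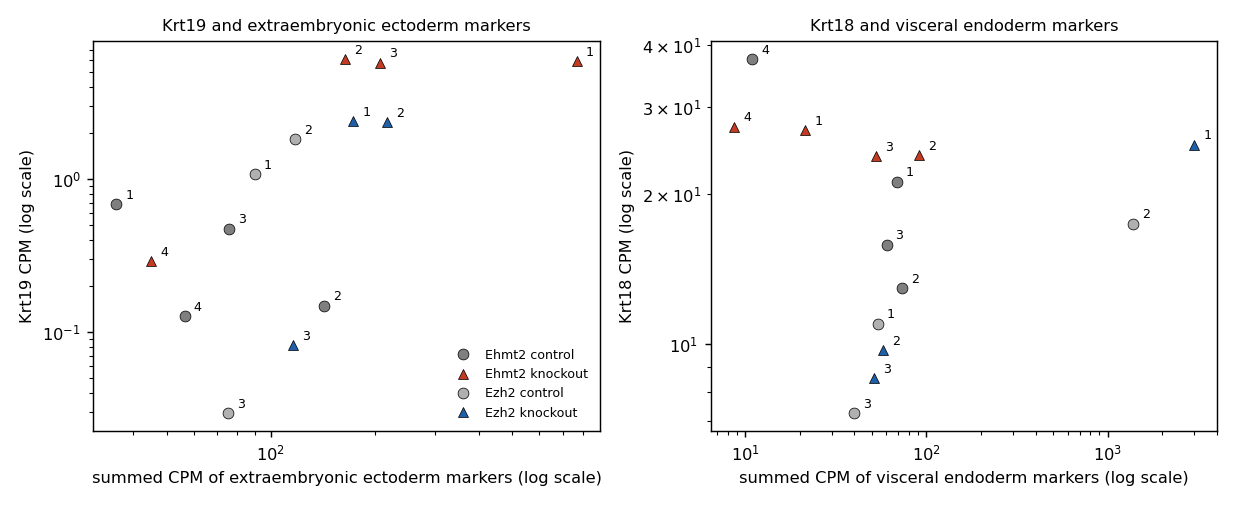
Left, *Krt19* against the summed level of extraembryonic ectoderm markers. Right, *Krt18* against the summed level of visceral endoderm markers. Both axes are CPM on a log scale, scaled within each cross, circles are controls and triangles knockouts, and numbers are replicates. Ehmt2 knockouts 1 to 3 sit highest for *Krt19*, and Ezh2 control 2 and knockout 1 sit far to the right for visceral endoderm markers.

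*Krt8*, the type II partner of K18, was counted in every epiblast of the Ehmt2 cross. It stood at 3.53, 4.36, 3.02 and 5.75 CPM in controls 1 to 4 and at 7.30, 8.07, 8.20 and 3.58 CPM in knockouts 1 to 4. Knockouts 1 to 3 lay above all controls, and knockout 4 below 2 of them. The log2 fold change was 0.68 (SE 0.32, adjusted p = 0.447 in edgeR) and did not pass the test. Without replicate 4 of both groups it was 1.11 (adjusted p = 0.0544 in edgeR).

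*Krt18* had the highest level of the 4. It stood at 21.2, 12.9, 15.8 and 37.4 CPM in Ehmt2 controls 1 to 4 and at 26.9, 24.0, 23.8 and 27.3 CPM in knockouts 1 to 4. The knockouts varied little. Knockouts 1 to 3 lay above controls 1 to 3, and all knockouts lay below control 4, so the groups overlapped. The log2 fold change was 0.32 (SE 0.21, adjusted p = 0.594 in edgeR). Without replicate 4 of both groups it was 0.58 (adjusted p = 0.218 in edgeR), also not called.

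*Krt7*, the other type II member, was at the edge of detection, with 29 to 46 reads in the Ehmt2 controls and 8 to 49 in the knockouts. Controls 1 to 4 held 1.13, 0.613, 0.840 and 0.776 CPM, and knockouts 1 to 4 held 0.923, 0.599, 1.25 and 0.129 CPM. The groups overlapped, and knockout 4 was the lowest of the 8. No keratin had every knockout below every control, which 2.53% of all transcripts did. The log2 fold change was -0.47 (SE 0.63, adjusted p = 0.824 in edgeR), and without replicate 4 of both groups it turned to 0.11.

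None of the 4 keratins passed the test in the Ezh2 cross, and their values overlapped between the groups. *Krt8* stood at 4.12, 11.2 and 4.54 CPM in controls 1 to 3 and at 11.5, 6.76 and 3.57 CPM in knockouts 1 to 3. *Krt18* stood at 11.0, 17.5 and 7.26 CPM in the controls and at 25.2, 9.73 and 8.55 CPM in the knockouts. For both genes the highest control was control 2 and the highest knockout was knockout 1, the 2 epiblasts that were also high in visceral endoderm markers. All 18 of those markers had counts, and the part of this tissue in the keratin levels was not tested.

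*Krt19* was counted 37, 62 and 1 times in Ezh2 controls 1 to 3 and 74, 85 and 3 times in knockouts 1 to 3, which gives 1.07, 1.83 and 0.0293 CPM against 2.38, 2.36 and 0.0816 CPM. Replicate 3 of both groups was near the limit of counting, and the groups overlapped. The summed extraembryonic ectoderm markers were 75.3 to 117 CPM in the controls and 174, 217 and 116 CPM in knockouts 1 to 3, so the groups overlapped. All 8 of these markers that could be tested had a log2 fold change above 0, with a median of 1.97, and 0 were called by edgeR (2 by DESeq2). Every knockout lay above every control for 3 of the 8, beside 6.46% of all transcripts. Their part in the *Krt19* values was not tested. *Krt7* stood at 0.290, 3.46 and 0.556 CPM in the controls and at 0.966, 0.665 and 0.190 CPM in the knockouts, with control 2 far above the rest. None of the 4 keratins had groups without overlap, while 6.46% of all transcripts had every knockout above and 6.61% every knockout below every control. The log2 fold changes were 0.71 for *Krt19* (SE 1.12), 0.28 for *Krt18* (SE 0.42), 0.14 for *Krt8* (SE 0.47) and -1.24 for *Krt7* (SE 0.92), with adjusted p-values of 0.842 to 0.972 in edgeR. Over all 50855 transcripts 0.0118% were called in either direction, 6 lower and 0 higher by edgeR, while 758 were higher at an unadjusted p under 0.05 and DESeq2 called 153 higher. Without control 2 and knockout 1 the log2 fold change of *Krt7* turned to 0.02, and no keratin was called.

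**Figure D3:**
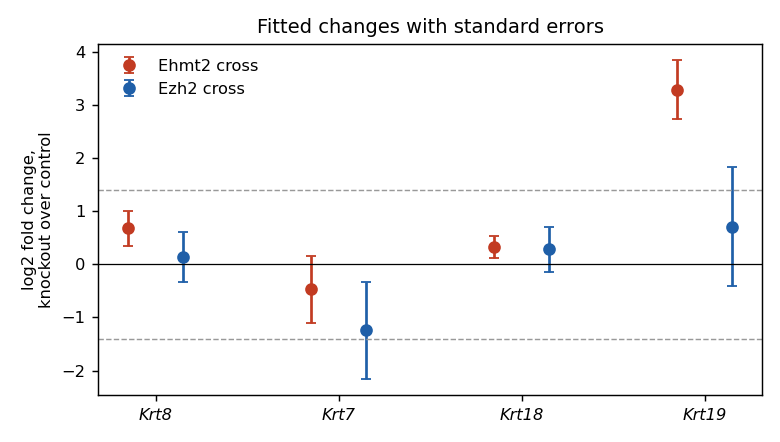
Fitted log2 fold change, knockout over control, of each keratin (x axis) in the Ehmt2 cross (red) and in the Ezh2 cross (blue), with bars for 1 SE and dashed lines at the threshold of 1.4 in either direction. *Krt19* in the Ehmt2 cross stands at 3.29, and the other 7 values lie between -1.24 and 0.71.

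Whether the knockouts of the 2 enzymes differed in their effect on a keratin was tested in 1 fit over all 14 epiblasts. The effect on *Krt19* was larger in the Ehmt2 cross by 2.56 on the log2 scale (SE 1.32, adjusted p = 0.633 in edgeR), which did not pass the test. For the other 3 keratins the differences were 0.04 to 0.77, with adjusted p-values from 0.863 to 0.991. In this fit 0.0326% of 55248 transcripts were called higher and 0.0235% lower, 0.0561% in either direction. The rise of *Krt19* in the Ehmt2 cross was therefore not shown to differ from its change in the Ezh2 cross.

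Per length of transcript, *Krt18* was the highest of the 4 keratins in 14 of 14 epiblasts, at 5.05 to 26.0 CPM per kb. *Krt8* came next in 13 epiblasts, at 1.54 to 5.89 CPM per kb. *Krt19* ranged from 0.0186 to 3.87 CPM per kb and lay above *Krt7*, at 0.0315 to 0.844 CPM per kb, in 11 of 14 epiblasts. In Ehmt2 knockouts 1 to 3 *Krt19* came close to *Krt8*, at 3.75 against 3.73, 3.87 against 4.12 and 3.66 against 4.19 CPM per kb, and in knockout 1 it was the higher. In the controls of this cross *Krt19* was at most 0.435 CPM per kb.

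As a share of the summed CPM per kb of the 4 keratins, *Krt19* took 2.52%, 0.819%, 2.29% and 0.274% in Ehmt2 controls 1 to 4. It took 14.2%, 15.6% and 14.8% in knockouts 1 to 3 and 0.874% in knockout 4. The share of *Krt18* was 78.5% to 89.0% in the controls, 67.1% to 70.9% in knockouts 1 to 3 and 90.3% in knockout 4. *Krt8* took 10.1% to 19.4% in the controls and 8.68% to 16.9% in the knockouts, and *Krt7* stayed at or under 1.59% in all 8. *Krt19* took, in the Ezh2 cross, 6.48%, 5.85% and 0.247% in the controls and 6.01%, 12.6% and 0.659% in the knockouts. The composition of the keratin transcripts thus differed in the same 3 Ehmt2 knockouts, and replicate 3 of the Ezh2 cross had little *Krt19* in both groups.

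**Figure D4:**
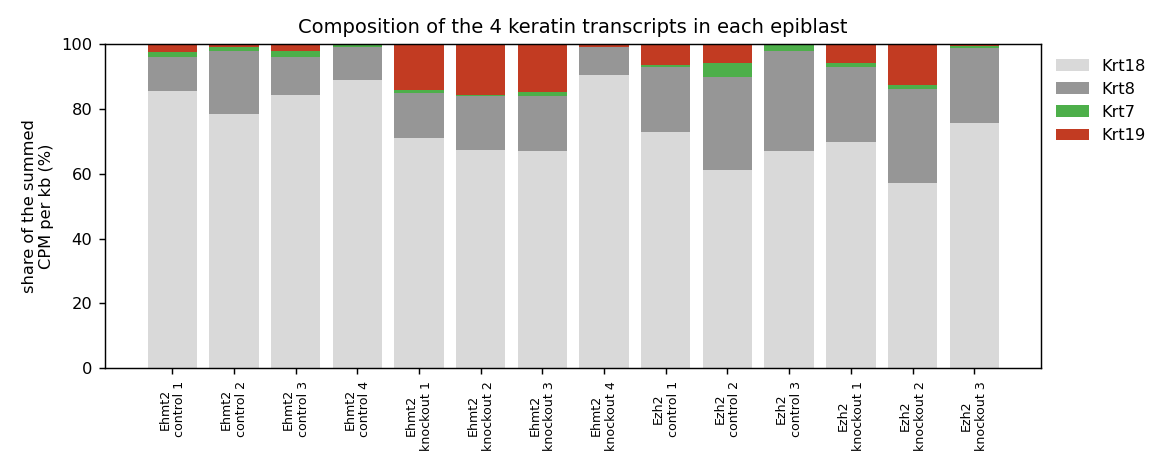
Share of each keratin (stacked bars, percent of the summed CPM per kb of the 4 transcripts) in each of the 14 epiblasts. *Krt19* takes 14.2% to 15.6% in Ehmt2 knockouts 1 to 3 and 0.874% in knockout 4, and *Krt18* is the largest share in every epiblast.

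Ratios were also compared within each epiblast. The 0.5 CPM added to both values pulls ratios of low levels towards 0. The log2 ratio of *Krt19* to *Krt7*, on CPM + 0.5, was -0.46, -0.78, -0.46 and -1.03 in Ehmt2 controls 1 to 4 and 2.17, 2.59, 1.84 and 0.33 in knockouts 1 to 4. Here all 4 knockouts, knockout 4 included, lay above every control. The difference of means was 2.41 (two-sided exact permutation p = 0.0286, the smallest that 4 against 4 can give), and the adjusted p over the 8 ratios tested was 0.229. In knockout 4 the ratio combined the lowest *Krt7* value with a *Krt19* value among the controls. The ratio of *Krt19* to *Krt8* differed by 1.59 (exact p = 0.0857) and that of *Krt19* to *Krt18* by 1.87 (exact p = 0.114), with knockout 4 among the controls in both. The ratio of the partners *Krt8* to *Krt18* differed by 0.28 (exact p = 0.486).

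The *Krt19* to *Krt7* ratio differed by 0.93 in the Ezh2 cross, with log2 ratios of 0.99, -0.76 and -0.997 in the controls and 0.98, 1.29 and -0.25 in the knockouts. The other 3 ratios differed by -0.06 to 0.31. With 3 against 3 the exact test cannot go below 0.10, and no ratio reached that value.

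The rest of the keratin family was barely counted. Of 50 other type I and type II keratins, 33 had a listed transcript, 21 of these never reached 10 reads in an epiblast, and 5 could be tested in either cross. None of the 5 was called. *Krt80*, a type II keratin of epithelial cells, was 0.0245 to 0.446 CPM in the Ehmt2 controls and 0.258 to 1.94 CPM in the knockouts (log2 fold change 2.14, SE 0.80, adjusted p = 0.308 in edgeR). The epidermal keratin genes *Krt1*, *Krt10* and *Krt17* and the keratin-like *Krt222* had log2 fold changes of -0.01, 0.17, -0.17 and -0.32 in the Ehmt2 cross, none of which passed the test. *Krt10* and *Krt222* could be tested in the Ezh2 cross, at 0.72 and -0.27.

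Other intermediate filament genes did not pass the test either, with 0 of 12 called in the Ehmt2 cross and 0 of 11 in the Ezh2 cross. Their median log2 fold changes were -0.03 and 0.06, beside -0.01 and 0.01 over all transcripts tested. The B-type lamin *Lmnb1* was the highest, at 121 to 149 CPM in the Ehmt2 controls and 113 to 144 CPM in the knockouts. The neuronal filament genes *Nefl* (log2 fold change -0.79, adjusted p = 0.0686), *Ina* (-0.55) and *Prph* (-2.37) and *Des* (0.85), which encodes the muscle filament desmin, did not pass the test in the Ehmt2 cross. *Nes*, encoding nestin, was the 1 gene of the list with every Ezh2 knockout above every control (log2 fold change 0.49, adjusted p = 0.600 in edgeR), where 6.46% of transcripts do so.

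Genes whose products tie keratin filaments to desmosomes and to other cytoskeletal elements were called in neither cross, 0 of 14 in each. In the Ehmt2 cross 11 of the 14 had a log2 fold change above 0, and the median was 0.44. *Dsp*, encoding desmoplakin, which anchors keratins at desmosomes, was 2.47 to 5.50 CPM in the controls and 1.94 to 42.6 CPM in the knockouts (log2 fold change 1.90, SE 0.53, adjusted p = 0.166 in edgeR). *Perp*, a desmosomal membrane protein gene, and *Fam83h*, which acts in keratin organisation, had log2 fold changes of 1.21 and 1.31. The abundant cytolinkers *Dst* and *Plec* and the plakophilin *Pkp4* had values of -0.07, 0.53 and 0.20. Without replicate 4 of both groups *Dsp* and *Fam83h* were called, at 2.52 and 2.12. The median in the Ezh2 cross was 0.22, with *Perp* at 1.53, *Dsp* at 1.12, *Pkp3* at 0.94 and *Dst* at 0.14.

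Of the epithelial adhesion and junction genes, 0 of 17 were called in each cross. The epiblast is itself an epithelium, and *Cdh1*, encoding E-cadherin, stood at 246 to 328 CPM in the Ehmt2 controls and 276 to 361 CPM in the knockouts. *Epcam* and *Tjp1*, an adhesion molecule and a tight junction scaffold, had log2 fold changes of -0.09 and -0.03. *St14*, encoding the protease matriptase, was 9.05 to 12.9 CPM in the controls and 13.1 to 20.8 CPM in the knockouts, without overlap (log2 fold change 0.76, adjusted p = 0.0915 in edgeR), which 2.56% of transcripts also show. The claudin *Cldn3* (1.399) and the small GTPase gene *Rab25* (-0.78) had the largest values, and neither passed the test. *Cldn3* in the Ezh2 cross was 0.176 to 0.290 CPM in the controls and 0.859 to 1.22 CPM in the knockouts (log2 fold change 2.20, adjusted p = 0.510 in edgeR), and *Cdh1* and *Epcam* had log2 fold changes of -0.11 and -0.23.

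Transcription factors known to act in trophectoderm or simple epithelia lay above 0 in all 13 cases tested in the Ehmt2 cross, with a median log2 fold change of 1.44 beside -0.01 over all transcripts. Of these, 2 were called higher, against 0.441% of all transcripts, and 0 were called with the replicate block or without the comparison set term. *Tfap2c*, encoding AP-2γ, had a log2 fold change of 3.80 (SE 0.57, adjusted p = 0.0119 in edgeR), with 0.0180 to 1.05 CPM in the controls and 0 to 25.5 CPM in the knockouts. *Grhl3*, a grainyhead factor of surface epithelia, had one of 2.94 (SE 0.57, adjusted p = 0.0475 in edgeR), with 0 to 0.808 CPM in the controls and 0 to 8.73 CPM in the knockouts. *Klf5*, a trophectoderm factor, was at 2.31 (adjusted p = 0.0526) and *Ets2* at 0.95 (adjusted p = 0.128), neither called. *Grhl2*, the most abundant of the list, was at 0.09. *Tfap2c* and *Ets2* are also in the list of extraembryonic ectoderm markers, whose summed level was highest in Ehmt2 knockouts 1 to 3. In the Ezh2 cross 0 of 13 were called and the median was 0.40, with *Tfap2c* at 1.962, *Klf4* at 1.12 and *Grhl2* at -0.15.

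**Figure D5:**
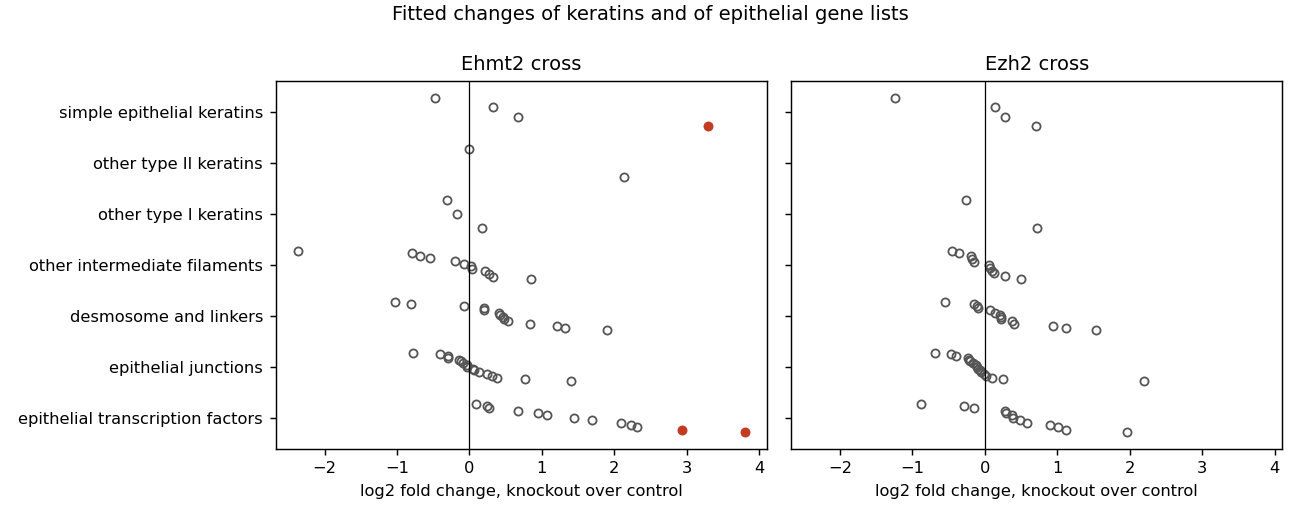
Fitted log2 fold change, knockout over control (x axis), of each tested gene of the keratin and epithelial lists (rows) in the Ehmt2 cross (left) and the Ezh2 cross (right). Filled red points are called and open points are not. The called points are *Krt19*, *Tfap2c* and *Grhl3*, all in the Ehmt2 cross.

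Across the 14 epiblasts, after the mean of each comparison set was subtracted from log2(CPM + 0.5), *Krt8* and *Krt18* had a Pearson correlation of 0.81, *Krt8* and *Krt19* of 0.79 and *Krt18* and *Krt19* of 0.72. These are descriptions over 14 epiblasts, in which genes can move together with genotype, depth or tissue makeup, and *Krt8* stood at rank 42 of 12868 genes by likeness to *Krt18*. The genes most like *Krt19* were *Zfp36l1* (0.93), *Igf2* (0.89), *Vps41* (0.89), *B4galt5* (0.88) and *Hmox1* (0.88). The genes most like *Krt18* were *Slc7a8* (0.91), *Slc40a1* (0.91), *Tango6* (0.91), *Peg10* (0.90) and *Lcp1* (0.90). The genes most like *Krt8* were *Rdh11* (0.86), *Tpcn1* (0.85), *Gatb* (0.84), *H19* (0.84) and *Peg10* (0.84). *Peg10*, an imprinted gene needed in the placenta, was on both of the last lists. The correlation with the summed visceral endoderm markers was 0.73 for *Krt18*, 0.62 for *Krt8* and 0.26 for *Krt19*. With the summed extraembryonic ectoderm markers it was, in the same order, 0.36, 0.59 and 0.65. With the summed ectoplacental cone and giant cell markers it was 0.53, 0.48 and 0.71. *Krt7* had a mean of 0.880 CPM, under the minimum of 1 for this comparison.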

How the data were processed

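RNA was extracted from single E6.25 epiblasts, and the Ovation V2 kit was used to amplify 750 pg of it per epiblast. The authors trimmed reads to 40 nt, removed adapters, aligned them with TopHat2 to GRCm38 (mm10) and counted them with HTSeq for each Ensembl release 74 transcript. They deposited raw counts, 1 file per epiblast, and transcripts not listed were taken as 0. A row of unaligned reads in 2 files (12.6% of the total in Ehmt2 control 4 and 13.3% in knockout 4) was left out. Strand use in counting is not given in the sources used here. Reads counted for several transcripts of a gene count more than once in the totals.

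Transcripts were named from GENCODE M21 (70021 of 72515 matched). Counts were filtered with filterByExpr, scaled by TMM and tested with edgeR 4.0.16 (glmQLFit, glmQLFTest, R 4.3.3), with a term for the comparison set in the Ehmt2 cross, and p-values were adjusted by Benjamini-Hochberg over all tested transcripts. A call needed an adjusted p under 0.05 and a log2 fold change beyond 1.4. Ratios and CPM were compared by exact permutation tests. DESeq2 1.42.0, other scalings, filters, transcripts and left-out epiblasts were alternatives. On simulated counts for the Ehmt2 cross, run on 13749 features, 94% of raised and 81% of lowered features with a log2 change of 3 were called. With a log2 change of 2 these shares were 86% and 62%. For the Ezh2 cross they were 92% and 73% at 3, and 58% and 47% at 2. The simulation held 1 transcript per gene and no difference between comparison sets, unlike the main fits. For sequence shared with other genes, words of 40 bases were counted. Genome matches of at least 40 bases and 95% identity outside the gene's own locus were found with blastn.

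The members and lists were chosen with earlier results of these data known. Named genes of a list were those called in either cross, the up to 3 with the highest mean CPM and the up to 3 with the largest absolute log2 fold change among those tested, and not all of them are described. Of cell type markers, sums and called genes are given. Samples are separate embryos from 4 and 3 litters.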

Additional observations from a re-analysis of the deposited data

Results flagged for a closer look

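In the Ehmt2 cross, 36 groups of keratin levels, shares and ratios and of summed cell type markers were searched for outliers. In 6 of the 36, 1 epiblast lay far from the other 3, where chance gives about 1 in 20. All 6 were groups of keratin values, and each time the epiblast was replicate 4. Replicate 4 of both groups also differed from replicates 1 to 3 over all genes, so its distance is not particular to keratins. Knockout 4 held 0.290 CPM of *Krt19* against 5.77 to 6.10 CPM in the other knockouts. Its *Krt19* share of the 4 keratins was 0.874% against 14.2% to 15.6%, and its *Krt18* share 90.3% against 67.1% to 70.9%. Its log2 ratio of *Krt19* to *Krt8* was -2.37 against -0.47 to -0.29, and that of *Krt19* to *Krt18* was -5.14 against -2.10 to -1.89. In control 4 the log2 ratio of *Krt19* to *Krt18* was -5.92 against -4.37 to -4.07 in the other controls. Several of these values come from the same *Krt19* counts and are not independent of each other.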

How the results depend on the processing

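Of 1405 values recomputed for 109 results, 1225 kept their direction and side of the threshold or, for counts of calls, stayed within a fixed fold of the main count. A change that was not called and stayed so is among those kept. Counts of *Krt19* under 30 in every Ehmt2 control and at 1 and 3 in replicate 3 of the Ezh2 cross limit its fold changes, and 3 epiblasts a group allow no exact p under 0.10. Alternatives without the 2 epiblasts highest in visceral endoderm markers, and CPM levels without replicate 4 of both groups, were added after seeing the data. Counting by the next transcript was possible for 2 of the 4 keratins. Where no cause is given, the cause was not tested.

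In the Ehmt2 cross the calls, 220 higher and 29 lower in edgeR, were 544 and 192 with DESeq2, 395 and 65 with no filter, 112 and 12 with 1 transcript per gene (fewer features tested), 51 and 1 without the comparison set term, 391 and 45 without replicate 4 of both groups, and 94 to 399 and 7 to 48 without 1 epiblast. In the Ezh2 cross, with 0 higher and 6 lower, they were 153 and 25 with DESeq2, 20 higher with no filter, 0 lower with 1 transcript per gene, 23 higher without the 2 epiblasts highest in visceral endoderm markers, and 0 to 21 and 0 to 6 without 1 epiblast. For the difference between crosses, 18 higher and 13 lower became 111 and 151 with DESeq2, 33 and 31 with no filter, 9 higher with 1 transcript per gene, and 8 lower without replicate 4.

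*Krt19* in the Ehmt2 cross was 3.67 (adjusted p = 0.222 in edgeR) without the comparison set term, and 2.85 to 3.77 without 1 epiblast, where adjusted p ranged from 0.00447 to 0.118 and the call was lost in 6 of 8 fits. Without replicate 4 of both groups *Krt7* turned to 0.11 (0.10 as a ratio of mean CPM), *Krt1* to 0.022 and *Grhl2* to -0.045, and without the comparison set term *Krt1* turned to 0.0098. Without the 2 epiblasts highest in visceral endoderm markers *Krt7* in the Ezh2 cross turned to 0.016, also as a ratio of mean CPM, and the ratio of *Krt8* to *Krt18* to 0.15. The call of *Tfap2c* was lost in 3 of 8 fits without 1 epiblast and that of *Grhl3* in 5, and both were lost with the replicate block and without the comparison set term. Of the extraembryonic ectoderm markers *Esrrb* and *Sfmbt2* stayed called with the block and none without the set term. *Ehmt2* lost its call without the set term (adjusted p = 0.289 in edgeR).

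Leaving out 1 epiblast in the Ehmt2 cross gave -0.79 to 0.11 for *Krt7*, -1.27 to 0.51 for *Krt1*, -0.18 to 0.76 for *Krt10*, -1.33 to 0.26 for *Krt17*, -0.15 to 0.011 for *Dst*, -0.078 to 0.056 for *Tjp1*, -0.018 to 2.06 for *Cldn3* and -0.047 to 0.15 for *Grhl2*. In the Ezh2 cross it gave -1.74 to 0.51 for *Krt7*, -0.36 to 0.75 for *Krt8*, -0.38 to 0.67 for *Krt18*, 0.14 to 1.54 for *Krt19*, -1.21 to 0.20 for *Krt222*, -0.20 to 0.25 for *Nefl* and -0.32 to 0.23 for *Grhl2*. Log2 ratios of mean CPM ranged in the Ehmt2 cross from -0.61 to 0.14 for *Krt7*, 0.040 to 0.61 for *Krt18* and 3.38 to 4.18 for *Krt19*, and in the Ezh2 cross from -1.74 to 0.52 for *Krt7*, -0.36 to 0.75 for *Krt8* and -0.38 to 0.67 for *Krt18*. The ratios ranged in the Ehmt2 cross from 2.13 to 2.88 (*Krt19* to *Krt7*), 1.30 to 2.08 (*Krt19* to *Krt8*), 1.44 to 2.66 (*Krt19* to *Krt18*) and 0.14 to 0.57 (*Krt8* to *Krt18*), and in the Ezh2 cross from -0.13 to 0.72 (*Krt19* to *Krt8*), -0.33 to 0.73 (*Krt19* to *Krt18*) and -0.29 to 0.058 (*Krt8* to *Krt18*).

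Deviations of same-numbered controls and knockouts had correlations of 0.05 to 0.39 in the Ehmt2 cross, highest for replicate 4. Different numbers gave -0.28 to 0.20 there. In the Ezh2 cross the correlations were -0.16 to 0.20 for the same number and -0.28 to 0.18 for different numbers. Apart from the comparison set of replicate 4, the main fits did not pair epiblasts by number, and the replicate block was an alternative. With the replicate block the Ehmt2 calls were 99 higher and 6 lower, the Ezh2 cross had 3 higher, and *Krt19* in the Ehmt2 cross was 3.38 (adjusted p = 0.0904 in edgeR).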
